A study of Mus musculus with 6 samples.

Results

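The repeat-derived RNA of control mouse testis was compared between 10dpp and 20dpp (days post partum), the interval in which the first wave of germ cells passes through meiosis. The 10dpp control library is from testes of Dnmt3L heterozygous mice and the 20dpp control library from Dnmt3L wild-type mice, both on a C57BL/6 background, each a pool of 3 animals. The age difference is therefore also a difference of genotype, and there is 1 library a side. All repeat families with at least 50 counts in the 2 libraries together were compared, which gave 728 families of the 785 listed in either library and of 787 in the series. RLTR3_Mm, with 53.0 counts, was the family just inside this minimum, and MLT2E, with 48.0, the one just outside. The same series holds testes of Dnmt3L knockout littermates at both ages (pools of 3 mice) and, at 16.5dpc (days post coitum), 1 heterozygous control and 1 knockout library, each from 7 or 8 mice. They serve here for values set beside the control pair and for a single test of age.

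Retrotransposons copy themselves through RNA. Long terminal repeat (LTR) elements such as IAP, ETn/MusD and MMERVK10C carry a promoter in their LTR and retrovirus-like genes in the internal part, LINE-1 elements encode their own reverse transcriptase, and SINEs such as B1 and B2 use the LINE-1 machinery. DNA transposons of the mouse are relics that no longer move. In the male germ line these elements are silenced by DNA methylation, set before birth with Dnmt3L, an inactive cofactor of the de novo methyltransferases, and by PIWI-interacting RNAs. During normal development the testis at 10dpp holds Sertoli cells, spermatogonia and the first spermatocytes entering meiosis, and by 20dpp pachytene spermatocytes are abundant. Some LTRs, RLTR10B among them, are known to serve as enhancers in meiotic germ cells.

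The files hold repeat families and no gene rows, so neither Dnmt3L nor the markers of spermatocytes, Sertoli cells or any other testis cell could be read, and the cell types at either age were not checked. In whole testis more RNA per cell cannot be told apart from more cells of a type. The listed counts of the control libraries total 2275706 at 10dpp and 8639952 at 20dpp, 3.80 times as many, and the labels name no sequencing run, so age, genotype, depth and run cannot be told apart. Values are given as CPM, counts per 1000000 listed repeat counts after library scaling, and as a ratio of 20dpp over 10dpp with its 95% counting interval. Such an interval covers counting error only, and with 1 library a side it is no replicate check. A ratio of at least 2-fold, or a log2 ratio of at least 1, serves as a description of size.

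Most repeat families had similar levels at both ages, and those that were much higher at 20dpp were mainly LTR retrotransposons. The log2 ratios had a median of 0.03, with quartiles of -0.33 and 0.46, and 513 of the 728 families (70.5%) lay within 1.5-fold. At 20dpp 72 families exceeded their 10dpp level by at least 2-fold (9.89% of those compared), and 29 were at least 2-fold lower (3.98%). The counting interval lay above 0 for 302 families (41.5%) and below 0 for 258 (35.4%). Of the 72 higher families 38 belong to the IAP, ETn/MusD, MMERVK10C, other ERVK and ERV1 lists, which hold 204 of the families compared and 2 of the 29 lower ones. The families in the higher set took 1.73% of the listed counts at 10dpp and 5.70% at 20dpp, and those in the lower set 0.460% and 0.177%. Nearest to the limits were MLT1J1-int (1.02) just inside and MER110-int (1.0 after rounding) just outside on the higher side, and Kanga1a (-1.05) and MamGypLTR1a (-0.98) on the lower side.

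**Figure D1:**
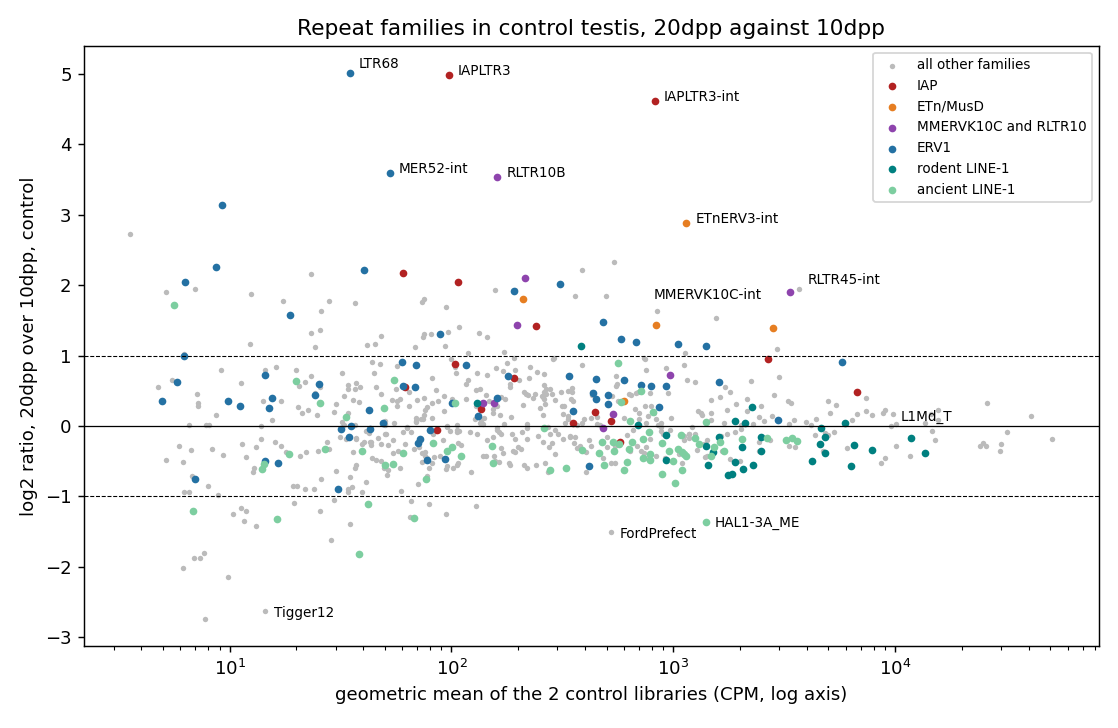
Log2 ratio of 20dpp over 10dpp in control testis (vertical axis) against the geometric mean of both libraries in CPM (horizontal axis, log scale), 1 point per repeat family and 728 points in all; dashed lines mark 2-fold. LTR68, IAPLTR3 and IAPLTR3-int stand highest, at 5.01, 4.98 and 4.62, and most abundant families lie near 0.

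The IAP elements, intracisternal A-particle retrotransposons of the ERVK class, held some of the highest ratios. IAPLTR3-int, an IAP internal sequence, went from 166 CPM at 10dpp to 4085 CPM at 20dpp, 24.6-fold higher (22.3 to 27.3). IAPLTR3, the LTR of the same name, was at 17.2 and 550 CPM, 31.6-fold higher (23.5 to 44.9, from 40.1 and 4857 counts). Both entries were thus low at 10dpp and high at 20dpp. IAPLTR4_I, another internal sequence, went from 28.4 to 129 CPM (4.50-fold, 3.55 to 5.92), and its LTR IAPLTR4 from 53.0 to 218 CPM (4.10-fold, 3.42 to 4.96). IAPEy-int stood at 146 and 392 CPM, a ratio of 2.68 (2.41 to 3.02). These 5 were the IAP entries at least 2-fold higher at 20dpp.

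The rest of the IAP list moved less. IAPEY3-int was at 1929 CPM at 10dpp and 3733 CPM at 20dpp (1.94-fold, 1.88 to 2.0). IAPEz-int, the internal part of the main mobile IAP group, was at 5666 and 7980 CPM, a ratio of 1.41 (1.38 to 1.44). Its LTR IAPLTR1_Mm, the lowest of the list, was at 623 and 532 CPM, 1.17-fold higher at 10dpp (1.10 to 1.24). The interval lay above 0 for 12 of the 16 IAP families and below 0 for 1, and the median log2 ratio was 0.62 against 0.03 over all families. The median was 1.19 over the 6 internal entries and 0.39 over the 10 LTR entries. As a list IAP took 1.06% of the listed counts at 10dpp and 2.01% at 20dpp.

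Internal sequences of the ETn/MusD elements were higher at 20dpp throughout. ETnERV3-int was at 422 CPM at 10dpp and 3110 CPM at 20dpp, 7.37-fold higher (6.92 to 7.86). ETnERV-int was 3.52-fold higher (3.10 to 4.01), MMETn-int, of the non-coding early transposons, 2.72-fold (2.56 to 2.89), and ETnERV2-int 2.63-fold (2.55 to 2.72), the last at 1731 and 4551 CPM. RLTRETN_Mm, the LTR entry paired here with ETnERV-int and MMETn-int, had the lowest ratio of the 5 families, at 533 and 677 CPM (1.27, 1.20 to 1.35). The 5 intervals lay above 0, and the median log2 ratio was 1.44. The share of the list in the listed counts was 0.339% at 10dpp and 1.03% at 20dpp.

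In the MMERVK10C group, ERVK elements with RLTR10 LTRs, RLTR10B and MMERVK10C-int stood out. RLTR10B was at 47.2 CPM at 10dpp and 548 CPM at 20dpp, 11.6-fold higher (9.62 to 14.2, from 110 and 4843 counts). RLTR10B2 was 4.28-fold higher (3.76 to 4.89), and RLTR10E, chosen after its value was seen, 2.72-fold (2.40 to 3.09). MMERVK10C-int went from 1743 to 6522 CPM, a ratio of 3.74 (3.63 to 3.86). The other LTR entries lay close to the 10dpp level, with RLTR10C at 505 and 569 CPM (1.13, 1.06 to 1.20) and RLTR10, the lowest of the list, at 487 and 478 CPM (log2 ratio -0.03, -0.12 to 0.07). The interval lay above 0 for 8 of the 9 families and below 0 for 0, and the median was 0.72.

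Among the ERV1 families, class I elements related to gammaretroviruses, the median log2 ratio was 0.55 over 65 families, with 42 intervals above 0 and 4 below. LTR68, an LTR entry, had the highest ratio of any family, at 6.03 CPM at 10dpp and 202 CPM at 20dpp (32.3-fold, 20.0 to 61.5). That ratio rests on 14.1 counts at 10dpp. MER52-int, an ERV1 internal sequence, was at 15.1 and 185 CPM (12.1-fold, 8.84 to 17.8). MER49 (8.79-fold, 4.49 to 23.6) and MER92C (4.80-fold, 2.61 to 11.3) had 7.00 and 9.04 counts at 10dpp. The lowest member was MER90, 1.85-fold higher at 10dpp (1.43 to 2.36).

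The abundant ERV1 entries had smaller ratios. MMVL30-int, the internal part of the VL30 retrotransposons, was at 4198 CPM at 10dpp and 7876 CPM at 20dpp (1.88-fold, 1.84 to 1.92), and its LTR RLTR6_Mm was 2.20-fold higher (2.10 to 2.30). MuRRS-int, from murine retrovirus-related sequences, was at 154 and 623 CPM (4.04-fold, 3.64 to 4.52). MMERGLN-int and MuLV-int, the latter from murine leukaemia virus sequences, had ratios of 1.49 (1.41 to 1.57) and 1.48 (1.41 to 1.56). A ratio of at least 2-fold was reached by 15 of the 65 families upward (23.1%, against 9.89% of all families compared) and by 0 downward. The files give no repeat classes, and LTR68, RMER5, RMER21A, RMER21B and RLTR5_Mm were placed in ERV1 from general knowledge of them, which was not checked against an annotation. Of these, LTR68 and RMER21B are among the 15.

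The remaining ERVK families spread both ways around a median log2 ratio of 0.13. Of 109, 10 were at least 2-fold higher (9.17%, against 9.89% of all families compared) and 2 lower (1.83%, against 3.98%). RLTR45-int, the highest, was at 1877 CPM at 10dpp and 7181 CPM at 20dpp (3.83-fold, 3.71 to 3.95). RLTR44C, the lowest, was at 101 and 41.5 CPM, 2.44-fold higher at 10dpp (2.06 to 2.88). MurERV4_19-int, a retroviral internal entry in no list, was at 241 and 1212 CPM (5.02-fold, 4.61 to 5.48). Among ancient ERVL families (61 compared, median -0.19) ERVL-E-int stood highest, at 181 and 838 CPM (4.62-fold, 4.20 to 5.12), and LTR41 lowest, 2.37-fold higher at 10dpp (2.06 to 2.72). MamGyp-int, from ancient Gypsy-like elements, was at 190 and 688 CPM (3.61-fold, 3.28 to 3.99). The median of the 9 Gypsy-like families was 0.53, or 1.63 with a minimum of 200 counts.

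**Figure D2:**
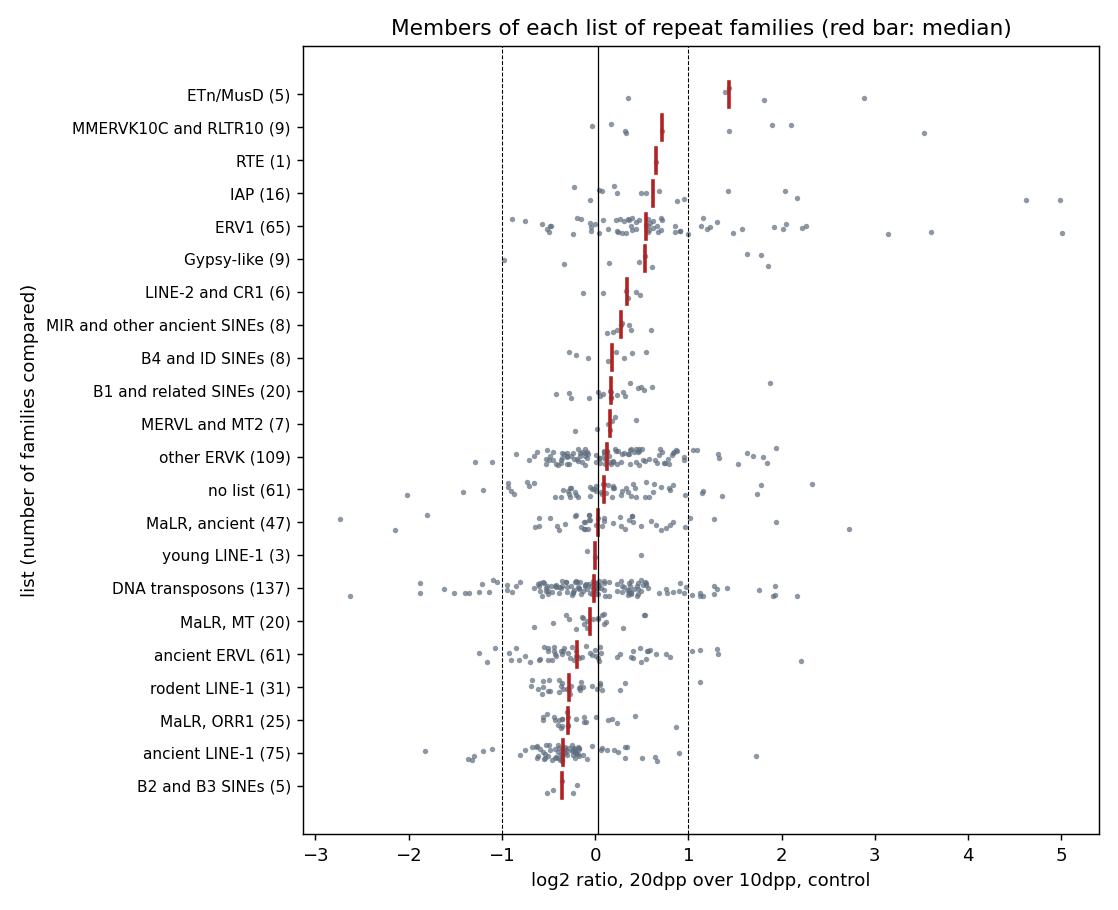
Log2 ratio of 20dpp over 10dpp in control testis for each member (grey points) of every list of repeat families, with the list median as a red bar, the median of all families as a solid line and 2-fold as dashed lines; the number compared stands in brackets. ETn/MusD has the highest median (1.44) and the B2 and B3 SINEs the lowest (-0.35).

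LINE-1 RNA lay at or below its 10dpp level in most subfamilies. L1Md_T, a young LINE-1 subfamily with active members, was at 9632 CPM at 10dpp and 9611 CPM at 20dpp, a log2 ratio of 0.00 (-0.02 to 0.02). L1Md_A was at 5463 and 5144 CPM (-0.09, -0.12 to -0.06), and L1Md_Gf was 1.40-fold higher at 20dpp (1.30 to 1.51). The 3 young subfamilies together took 1.58% of the listed counts at 10dpp and 1.56% at 20dpp.

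The 31 older rodent LINE-1 families had a median log2 ratio of -0.28, with 23 intervals below 0 and 6 above. L1_Mus4, the lowest, was at 2238 CPM at 10dpp and 1387 CPM at 20dpp, 1.61-fold higher at 10dpp (1.56 to 1.67). L1VL4 was 1.60-fold higher at 10dpp (1.55 to 1.65), and L1Md_F2 1.31-fold (1.30 to 1.33). Lx2A1 went the other way, at 259 and 568 CPM (2.19-fold higher at 20dpp, 2.01 to 2.39). The list held 12.2% of the listed counts at 10dpp and 9.99% at 20dpp.

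The 75 LINE-1 families shared among mammals had a median of -0.34, with 58 intervals below 0 and 9 above. HAL1-3A_ME, a half-LINE entry, was at 2249 CPM at 10dpp and 876 CPM at 20dpp, 2.57-fold higher at 10dpp (2.48 to 2.66). It was the 1 family of the 267 with at least 5000 counts that was at least 2-fold lower at 20dpp, where 21 of them were at least 2-fold higher. L1MEa, the lowest of the list, was at 71.8 and 20.3 CPM (3.54-fold, 2.84 to 4.39). L1MEg was 1.75-fold (1.68 to 1.82) and L1MC3 1.60-fold (1.53 to 1.68) higher at 10dpp. The highest of the list, L1M3f, rested on 7.02 and 93.0 counts (3.28-fold higher at 20dpp, 1.64 to 8.97).

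The B1 list took 21.1% of the listed counts at 10dpp and 21.2% at 20dpp, and the B2 and B3 list 13.9% and 11.4%. B1_Mm, the B1 entry with the lowest ratio, was at 13546 CPM at 10dpp and 10128 CPM at 20dpp (log2 ratio -0.42, -0.44 to -0.40). B1_Mus1 and B1_Mus2 had log2 ratios of -0.26 and -0.28. The 4 B1_Mur entries lay between -0.07 and 0.08, the 3 B1F entries between 0.16 and 0.23, and PB1 and PB1D10, from proto-B1 sequences, at 0.30 and 0.32. PB1D7 and PB1D9 both lay at 0.17, and the other 6 members of the list, FAM, FLAM_A, Alu, Alu_5, AluF_3 and AluG_3, between 0.37 and 1.87. The entries of the list beyond its extremes and the largest gains and losses are given to show all 20 members, with no test of an order among them. All 5 B2 and B3 families had intervals below 0, from -0.52 for B2_Mm1a to -0.19 for B3, and B2_Mm2 was at 33455 and 26316 CPM (-0.35, -0.36 to -0.33). In the B4 and ID list B4A was lowest (-0.28) and ID2 highest (0.55). The 5 ancient MIR entries lay above 0 with their intervals (median 0.28). In the list of ancient SINEs that holds them AmnSINE1 was highest (0.60) and MamSINE1 lowest (0.13, -0.02 to 0.29). The ancient LINEs ranged from -0.13 for L2 to 0.48 for L3b, and L4 was 1.57-fold higher (1.5 to 1.64).

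By the number of counts the largest gains were those of PB1D10 (23284 to 28969 CPM), RLTR45-int, MMERVK10C-int, IAPLTR3-int and ID_B1 (38990 to 42836 CPM). The largest losses were those of B2_Mm2, B3, B1_Mus1, B4A and B1_Mus2, all SINEs. CPM is a share of the listed counts and is not divided by length, so levels of different families are not ranked here.

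The MERVL and MT2 families lay near 0. MERVL-int, the internal part of an element known for its RNA in the early cleavage embryo, was at 2634 CPM at 10dpp and 2261 CPM at 20dpp (log2 ratio -0.22, -0.26 to -0.18), and its LTR MT2_Mm at 0.02 (-0.06 to 0.09). MT2C_Mm was the highest of these 7 families, at 0.44. Among the non-autonomous MaLR elements the ORR1 list had a median of -0.29 over 25 families, with 19 intervals below 0, and the MT list of -0.06 over 20. ORR1A0 was at 603 and 495 CPM (-0.29), and MTA_Mm, whose LTR is known as a promoter in oocytes, at 4560 and 4160 CPM (-0.13). The extremes were ORR1A4-int (0.87) and ORR1B2-int (-0.56) in the first list, and MTEb-int (0.53) and MTEa-int (-0.65) in the second. Of the ancient MaLR families MLT1I-int had a ratio of 6.60 (2.54 to 37.9) from 3 and 87.0 counts.

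The lowest ratios belonged to DNA transposons, ancient MaLR internal sequences and LINE-1 relics, mostly at low counts. The 29 families at least 2-fold lower had a median of 83.5 counts at 10dpp, against 396 over all families compared, and 14 of them remained when 200 counts were required. MLT1E2-int, the lowest, was at 20.1 CPM at 10dpp and 3.0 CPM at 20dpp, 6.66-fold higher at 10dpp (4.15 to 11.5, from 47.0 and 26.5 counts). Tigger12, a mariner-like DNA transposon, was at 35.8 and 5.77 CPM (6.18-fold, 4.35 to 9.01). MLT1F1-int (4.43-fold), Helitron2Na_Mam (4.06-fold), Ricksha_0 (3.67-fold), MER5C1 (3.67-fold), MLT1A-int (3.47-fold) and Charlie13a (3.08-fold) followed, with 29.0 to 117 counts at 10dpp. FordPrefect, a DNA element of the hAT superfamily with 2052 and 2729 counts, was at 880 and 309 CPM (2.85-fold higher at 10dpp, 2.69 to 3.02). The 137 DNA transposons had a median of -0.01 and went both ways. Past 2-fold were 13 upward (9.49%, against 9.89% of all families compared) and 12 downward (8.76%, against 3.98%). Charlie11, the highest, was at 10.9 and 49.8 CPM (4.47-fold, 3.01 to 6.92). Among B1-related entries Alu, named for a primate element, rested on 15.0 and 214 counts (3.65-fold, 2.23 to 6.85).

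The LTR and the internal part of an element need not move together, and for several ERVK groups the internal entry was the higher one. Over 60 pairs matched by name the internal entry had the higher ratio in 37 and the LTR in 23, and the 2 intervals did not overlap in 44. In the 18 pairs of class I and II elements the internal entry was higher in 14, with a median difference of 0.66 on the log2 scale, and in 6 of them by at least 1. The largest were MMERVK10C-int against RLTR10C (1.90 and 0.17), RLTR45-int against RLTR45 (1.94 and 0.37) and ETnERV-int against RLTRETN_Mm (1.81 and 0.35), chosen after their values were seen. IAPEz-int (0.49) exceeded IAPLTR1_Mm (-0.23), whereas IAPLTR3-int (4.62) and IAPLTR3 (4.98), and IAPLTR4_I (2.17) and IAPLTR4 (2.04), had overlapping intervals. In the 21 ORR1 and MT pairs the median difference was 0.16. In the 17 ancient MaLR pairs it was -0.12, and the internal entries spread from -2.74 to 2.72 while the LTR entries stayed between -0.39 and 0.71. The ends of the internal range rest on low counts at 10dpp and 20dpp, 47.0 and 26.5 for MLT1E2-int and 3 and 87.0 for MLT1I-int. An LTR entry sums reads of solitary LTRs and of those beside an internal part, which the counts do not separate. Pairs that share an entry are not independent.

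**Figure D3:**
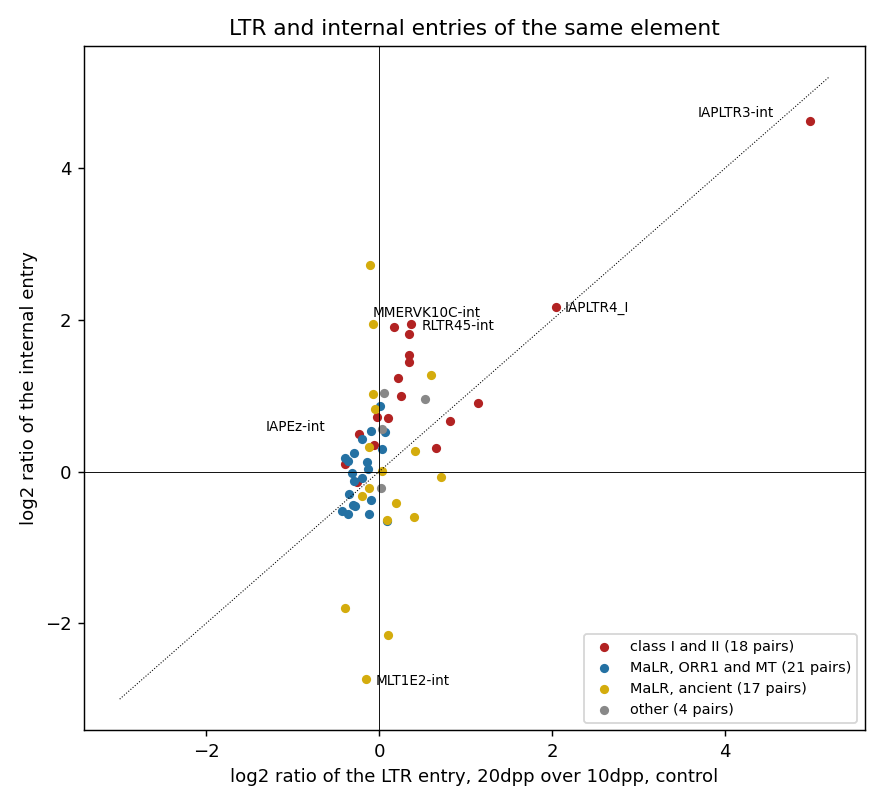
Log2 ratio of 20dpp over 10dpp in control testis for the internal entry (vertical axis) against the LTR entry (horizontal axis) of 60 pairs matched by name; the dotted line marks equal ratios. Most class I and II pairs lie above the line, and the ancient MaLR pairs spread along the vertical axis.

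The knockout pair has 1 genotype at both ages and shares no library with the control pair, so its ratios were set beside those of the control. It spans the same ages with a wider gap in depth, from 1671536 listed counts at 10dpp to 11239673 at 20dpp, and whether the knockout testes held the same cells could not be read. At 20dpp 54 of 722 families exceeded 10dpp by at least 2-fold in the knockout (7.48%) and 29 fell short of it by as much (4.02%). Across the 717 families measured in both pairs Spearman's rho between the log2 ratios was 0.67 and Pearson's r 0.67, a description across families, which are not replicates. Of the 68 families at least 2-fold higher in the control pair and measured in the knockout, 27 were at least 2-fold higher there too, which is 39.7% of the control set and 51.9% of the knockout set of 52. Of these 68 families 51 had a knockout log2 ratio above 0 and 17 below. Over all 722 families of the knockout pair the median log2 ratio was -0.01. Of the 27 lower families 17 also had a knockout ratio past 2-fold downward (63.0% of the control set, 58.6% of the knockout set), and 27 had a ratio below 0. Members were chosen by the control ratio, so the smaller median in the knockout (0.87 against 1.63 in the higher set) is given as a value only.

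Families high at 20dpp fell into some with similar values in both genotypes and some high in the control library alone. RLTR10B was at 58.1 and 650 CPM in the knockout at 10dpp and 20dpp, a log2 ratio of 3.48 beside 3.53 in the control. ETnERV3-int (2.72 and 2.88) and RLTR10B2 (1.97 and 2.10) were likewise close. IAPLTR3, by contrast, was at 20.7 and 29.6 CPM in the knockout, a log2 ratio of 0.50 beside 4.98 in the control. LTR68 was at 8.93 and 12.4 CPM there (0.43 beside 5.01), and MER52-int at 22.9 and 16.5 CPM (-0.49 beside 3.60). IAPLTR3-int lay between, at 171 and 1647 CPM (3.27 beside 4.62). Further families high in the control library alone, chosen after their values were seen, were RLTR13D6 (1.84 in the control, -0.31 in the knockout), RLTR9A2 (1.80 and -0.21), RLTR9F (1.69 and -0.08) and RodERV21-int (1.63 and -0.20). Young LINE-1 went the other way, with L1Md_T at 10529 and 41208 CPM in the knockout, a log2 ratio of 1.97 beside 0.00. RLTR10C (1.35 beside 0.17) and IAPEy-int (2.61 beside 1.42) were also higher in the knockout pair. Each difference between genotypes rests on 4 single libraries and was not tested.

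**Figure D4:**
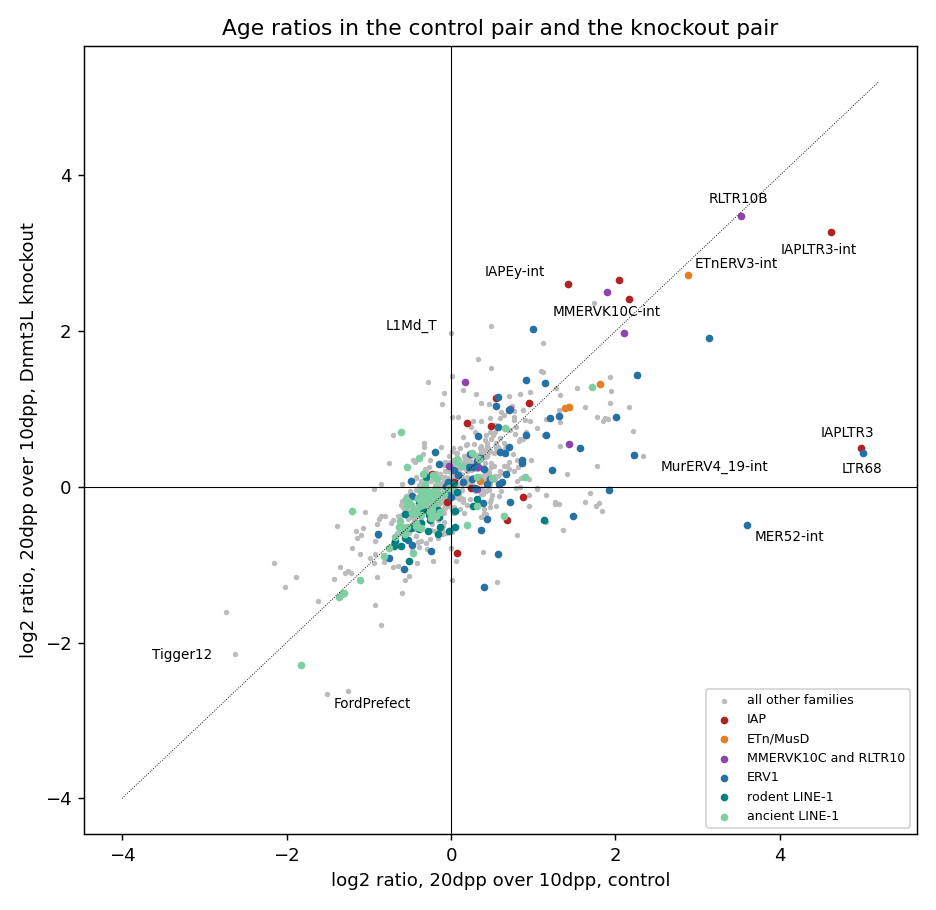
Log2 ratio of 20dpp over 10dpp in the knockout pair (vertical axis) against the control pair (horizontal axis) for 717 repeat families, 1 point each; the dotted line marks equal ratios. RLTR10B and ETnERV3-int lie on the line, and IAPLTR3, LTR68 and MER52-int lie far below it.

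A test of age was possible over both genotypes, and LTR families made up most of those that rose. The difference of 20dpp minus 10dpp, averaged over control and knockout, was tested with edgeR's quasi-likelihood test on all 6 libraries with genotype as a block. Of 743 families 66 passed (8.88%) at an adjusted p under 0.05, of which 41 rose (5.52%) and 25 fell (3.36%), and 28 of the 41 belong to the IAP, ETn/MusD, MMERVK10C, other ERVK and ERV1 lists. Of these 28, 21 came from the 139 ERVK families tested and 7 from the 69 ERV1 families tested. Without the 10dpp control library or without the 10dpp knockout library 0 families passed in edgeR, with 107 and 92 at an unadjusted p under 0.05. DESeq2, run on all 6 libraries, called 118. When scaled on total counts 28 rose and 28 fell, and the 66 families kept their direction under each of these settings. Heterozygous and wild-type animals are both coded as control in this fit, and the control pair shares its libraries with the ratios above, so the calls are no second measurement of them.

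RLTR10B rose by 3.51 ± 0.16 (SE) on the log2 scale (edgeR adjusted p = 0.000592) and ETnERV3-int by 2.80 ± 0.13 (edgeR adjusted p = 0.000592). MMERVK10C-int rose by 2.22 ± 0.21 (edgeR adjusted p = 0.0123), and RLTR10B2 and RLTR10-int passed as well. For IAPLTR3-int the change was 4.07 ± 0.58 (edgeR adjusted p = 0.0219), and IAPLTR4_I, IAPLTR4, IAPEy-int and IAPEY3-int were the other IAP families that rose, 5 of 16. In ETn/MusD 4 of 5 rose, with RLTRETN_Mm at 0.22 (edgeR adjusted p = 0.464). The ERV1 list had 7 of 69 that rose, among them MMVL30-int (1.14 ± 0.14, edgeR adjusted p = 0.0143), RLTR6_Mm and MuLV-int, and the other ERVK list 8 of 109, among them RLTR45-int (1.58 ± 0.18, edgeR adjusted p = 0.0143). These list counts stand beside 5.52% of all 743 families that rose. IAPLTR3 (edgeR adjusted p = 0.148), LTR68 (0.154) and MER52-int (0.255), named above as high in the control library alone, did not pass. In this fit, differences of the age effect between genotypes enter the 2 residual degrees of freedom and so widen the SE. A family with unlike ratios in the control and knockout pairs therefore tends not to pass. Its failure to pass does not show that its level was the same at both ages.

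Among the families that fell were 8 of 31 older rodent LINE-1 and 5 of 75 LINE-1 shared among mammals, beside 3.36% of all 743 families. L1_Mus4 fell by 0.73 ± 0.11 (SE) on the log2 scale (edgeR adjusted p = 0.0254), L1VL4 by 0.69 ± 0.12 (edgeR adjusted p = 0.0309), HAL1-3A_ME by 1.39 ± 0.20 (edgeR adjusted p = 0.0219) and L1MEa by 2.06 ± 0.26 (edgeR adjusted p = 0.0171). Tigger12, Charlie13a, MLT1E2-int, RLTR44C and LTR41 fell too. FordPrefect, at -1.91 ± 0.76, did not pass (edgeR adjusted p = 0.146), nor did any of the 3 young LINE-1 subfamilies. The log2 ratio of FordPrefect was -1.51 in the control pair and -2.66 in the knockout pair. Those of L1Md_A, L1Md_T and L1Md_Gf were -0.09, 0.00 and 0.49 in the control pair and 1.20, 1.97 and 2.06 in the knockout pair. Why these families did not pass was not tested. No B1, B2 or B3 family passed the test, and in the B4 and ID list ID4 rose. Of the 66 families called, FordPrefect_a, MLT1H1-int and MLT1E1A-int lay under the minimum of 50 counts in the control pair.

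At 16.5dpc the leading families that were high at 20dpp were also far below their 20dpp level in the control. That comparison shares the 10dpp control library, and 3 of 687 families were at least 2-fold higher at 10dpp than at 16.5dpc (0.437%) and 5 lower (0.728%). RLTR10B was at 76.9 CPM in the 16.5dpc control, ETnERV3-int at 454 CPM and IAPLTR3-int at 195 CPM, against 548, 3110 and 4085 CPM in the 20dpp control. IAPLTR3 was at 56.6 CPM at 16.5dpc, 17.2 at 10dpp and 550 at 20dpp, so 10dpp was its lowest point. MMVL30-int stood at 2517, 4198 and 7876 CPM in order of age. HAL1-3A_ME was at 2554, 2249 and 876 CPM, and L1_Mus4 at 2329, 2238 and 1387 CPM. Of the 72 families at least 2-fold higher in the 20dpp control, 43 had both 20dpp libraries above the other 4 libraries, and 26 of the 29 lower families had both below. Over all 728 families compared 171 had both 20dpp libraries above the other 4 (23.5%) and 150 had both below (20.6%). The sets of 72 and 29 families were chosen by the control ratio of 20dpp over 10dpp, which meets part of this condition in advance. Their counts are therefore no independent support.

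**Figure D5:**
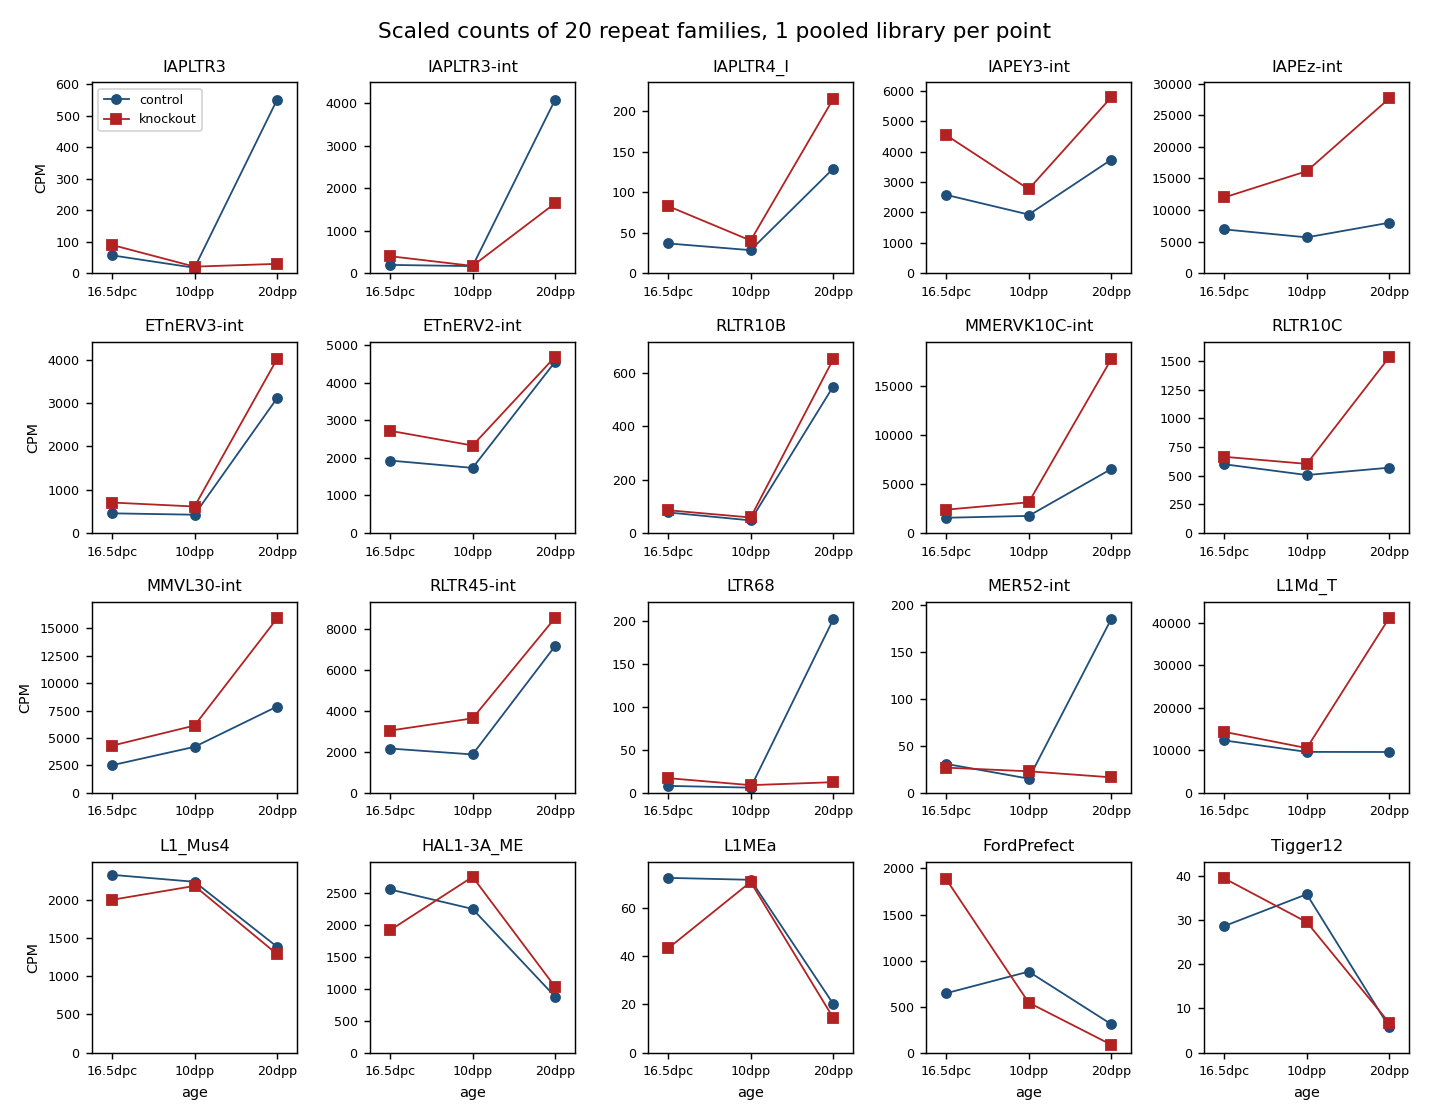
CPM of 20 repeat families at each age (linear axes from 0), 1 pooled library per point; circles are controls (heterozygous at 16.5dpc and 10dpp, wild type at 20dpp) and squares Dnmt3L knockouts. RLTR10B and ETnERV3-int are high at 20dpp in both genotypes, IAPLTR3, LTR68 and MER52-int in the control alone, and L1_Mus4, HAL1-3A_ME and L1MEa are low at 20dpp in both.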

How the data were processed

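Total RNA of pooled whole testes was extracted with TRIzol and made into libraries with a stranded Illumina TruSeq mRNA kit, per the labels. Bowtie and the mouse build mm9 are named in the submitters' processing notes; how reads were assigned to repeats, shared out and handled by strand is not given in the sources used here. The authors deposited estimated counts per repeat family, which need not be whole and list only families above 0. A family sums over its copies, so reads of near-identical subfamilies, of copies within gene transcripts and of either strand are not separated, and the supplied reference, of another build, was not used.

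Counts were scaled to CPM with TMM factors over all 6 libraries (edgeR 4.0.16, R 4.3.3; 1.02 in both control libraries). Ratios were taken after adding 0.5 counts, with exact Clopper-Pearson intervals (95%) of rounded counts conditional on their sum. The design without replicates allows no p-value for the control pair. The age test used rounded counts, edgeR's default filter, the quasi-likelihood F test with 2 residual degrees of freedom and Benjamini-Hochberg adjustment over 743 families. Its SE is the size of the log2 change divided by the square root of F, whose variance is moderated across families. The SE therefore restates the F test. The age test was also run on simulated counts, drawn with the same age effect in both genotypes and a common dispersion, which the real counts need not have.

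Families were grouped by name patterns into 21 lists, from general knowledge of repeat classes since the files give none; 83 of 787 are in none. Families named are the 10 highest and 10 lowest ratios with intervals excluding 0, the 5 highest and lowest with at least 5000 counts, the 5 largest gains and losses in CPM, 25 fixed entries and the extremes of each list; all other families named were chosen after their values were seen. The members and lists were chosen with earlier results of these data known. Alternatives were other scalings, minimums and added counts, and for the test DESeq2 1.42.0, no filter and fewer libraries.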

Additional observations from a re-analysis of the deposited data

Results flagged for a closer look

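Of the 78 families named by rule, 6 had 20dpp over 10dpp ratios that pointed opposite ways in the control and knockout pairs. Their counting intervals excluded 0 in both pairs, and the difference was not tested. How many of the 717 families measured in both pairs did so was not counted. Lx2A1 had a log2 ratio of 1.13 in the control pair and -0.43 in the knockout pair. The other 5 were lower at 20dpp in the control and higher in the knockout. L1Md_A had log2 ratios of -0.09 and 1.20, IAPLTR1_Mm of -0.23 and 0.16, MERVL-int of -0.22 and 0.10, MTA_Mm of -0.13 and 0.16, and ORR1A0 of -0.29 and 0.18. Each genotype has 1 library at each age, and the control changes from heterozygous to wild type between the ages. The groups are too small for an outlier check.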

How the results depend on the processing

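The count of families at least 2-fold higher in the control pair stayed within 1.5 times its value under the 6 alternatives run. The count at least 2-fold lower (29) was 14 with a minimum of 200 counts and 60 with no minimum, where low counts enter. The scalings tried moved the control log2 ratios, as printed to 2 decimals, by at most 0.02. With the minimum of 200 counts the Gypsy-like median became 1.63 and that of DNA transposons turned from -0.01 to 0.01; with no minimum the median of the families in no list turned from 0.10 to -0.01. For the age test (66 called in edgeR) DESeq2 called 118 and the fit of the 4 libraries of 10dpp and 20dpp 100, of which 65 and 65 were among the 66. Leaving out 1 library at a time gave 0 to 118 calls: 0 without either 10dpp library, 39 without the 20dpp control, 118 without the 20dpp knockout, 104 without the 16.5dpc knockout and 93 without the 16.5dpc control. These fits have fewer residual degrees of freedom; the cause was not tested further. No paired analysis was possible because each group has 1 library and the groups share a single replicate number. Depth limits families under about 50 counts, of which 57 in the control pair were not compared.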

Other observations

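Within the DNA transposons the name groups differed in the control pair, a split chosen after the values were seen. The 33 Charlie entries, of the hAT superfamily, had a median of 0.36 on the log2 scale, with 17 intervals above 0 and 6 below, from -1.62 for Charlie13a to 2.16 for Charlie11. The 19 Tigger entries, mariner-like elements, had a median of -0.42, with 5 intervals above 0 and 13 below and 5 entries at least 2-fold lower. Over all families compared 41.5% of intervals lay above 0 and 35.4% below, and 3.98% of families were at least 2-fold lower. Zaphod2 was at 80.5 and 308 CPM (3.82-fold higher at 20dpp, 3.30 to 4.46).

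Among the ERVK LTR groups the 15 RLTR13 entries had a median of 0.46, from -0.30 for RLTR13B1 to 1.84 for RLTR13D6, and the 8 RLTR9 entries of 0.56, from -0.62 for RLTR9B2 to 1.80 for RLTR9A2. The 8 RLTR20 entries had a median of -0.21 and the 6 RLTR44 entries of -0.30. Apart from these groups, MURVY-LTR, from a retrovirus-like element known from the Y chromosome, was at 266 and 434 CPM (1.63-fold, 1.5 to 1.78).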
